A study of Mus musculus with 10 samples.

Results

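*Vipr1*, *Blnk*, *Nckap1l*, *P2rx7*, *Tmem201*, *Ly6c2*, *Matn4*, *Apc2* and *Zfp867* are 9 mouse genes whose *Cebpb*ΔM and wild-type (WT) levels differed in opposite directions in mammary epithelial cells (MECs) and mammary macrophages. They were chosen by their measured log2 fold changes in these 2 genotype contrasts and the gap between them, so the genotype values below describe the genes and carry no test. All 9 were found among 55487 genes of the count tables, and all 9 passed the filter that left 18323 genes. When all 18323 genes were ordered by the *P* of the difference in genotype effect, a value that led to their choice and is given as no test of them, they took places between 2 and 42. The libraries came from 10-wk-old female BALB/c mice in diestrus. *Cebpb*ΔM mice carried Csf1r-iCre and floxed *Cebpb* (Csf1r-Cre pos; Cebpb fl/fl), and WT mice carried the floxed alleles without Cre (Csf1r-Cre neg; Cebpb fl/fl), so both genotypes share the floxed alleles. The labels call the *Cebpb*ΔM libraries a C/EBPb knockdown. MECs were purified by negative selection for lineage markers (WT 1 and 3, *Cebpb*ΔM 1 and 3), and macrophages by positive selection with antibody to F4/80 (WT 4 and 5, *Cebpb*ΔM 4 to 7). The *Csf1r* promoter directs Cre to macrophages and other myeloid cells rather than to one cell type, and the sources used here do not say whether a library is 1 mouse or a pool. Total counts were 25310926 to 27008166 in the 4 MEC libraries and 16935000 to 20174722 in the 6 macrophage libraries.

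C/EBPβ is a basic leucine zipper transcription factor that acts in the differentiation and the inflammatory responses of myeloid cells, and it is also used by the mammary epithelium. In the diestrus gland the epithelium forms alveolar buds while macrophages lie along the ducts. The 9 genes come from unrelated pathways. *Vipr1* and *P2rx7* encode cell surface receptors, *Blnk*, *Nckap1l* and *Ly6c2* encode proteins best known from leukocytes, *Matn4* encodes a matrix protein, *Apc2* a relative of the tumor suppressor APC, and *Tmem201* and *Zfp867* nuclear proteins.

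The targeted gene could not check the labels. *Cebpb* (chr2:167688915-167690418) had 13 and 15 counts in WT macrophages 4 and 5 and 16, 13, 5 and 4 counts in *Cebpb*ΔM macrophages 4 to 7, so the genotypes overlapped. In MECs it had 25 and 28 counts in WT and 69 and 42 in *Cebpb*ΔM. As TMM-scaled CPM it was at 0.652 and 0.714 in WT and at 0.815, 0.633, 0.271 and 0.240 in *Cebpb*ΔM 4 to 7. The library labeled *Cebpb*ΔM 4 was thus above both WT libraries and that labeled *Cebpb*ΔM 5 just below them, so *Cebpb*ΔM stands for the label throughout. The paper checked the deletion otherwise. It found no C/EBPβ protein or *Cebpb* mRNA in cultured bone marrow macrophages of *Cebpb*ΔM mice, and by staining no C/EBPβ in CSF1R-positive cells of their glands. Those checks were not made on these libraries. *Cebpb* shares 312 nt of exon with *Tmem189* on the opposite strand. *Csf1r*, whose promoter drives Cre, had 253 and 216 counts in WT MECs and 423 and 503 counts in *Cebpb*ΔM MECs. The cell type labels were checked with marker genes, whose levels are summed CPM (counts normalized to library size), scaled by the trimmed mean of M-values (TMM). The 12 macrophage markers summed to 30.3 to 35.9 CPM in WT MECs, 38.13 to 42.5 in *Cebpb*ΔM MECs, 3724 to 5547 in WT macrophages and 6685 to 8853 in *Cebpb*ΔM macrophages. The 12 luminal epithelial markers summed to 28101 to 36936 CPM in WT MECs and 29756 to 32973 in *Cebpb*ΔM MECs. The macrophage libraries held luminal markers too, with 10687 to 11081 CPM in WT and 5703 to 8043 CPM in *Cebpb*ΔM. The MEC libraries held markers of fibroblasts, which for 7 genes summed to 5338 to 6467 CPM in WT and 5283 to 6307 CPM in *Cebpb*ΔM. Between the macrophage genotypes, all 12 macrophage markers had a positive log2 fold change (median 0.62) and 2 of the 12 luminal markers did (median −0.52), although 0 genes of either list were called. Their part in the values below was not tested. In bulk samples, fewer cells of a type and less RNA per cell cannot be told apart.

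**Figure D1:**
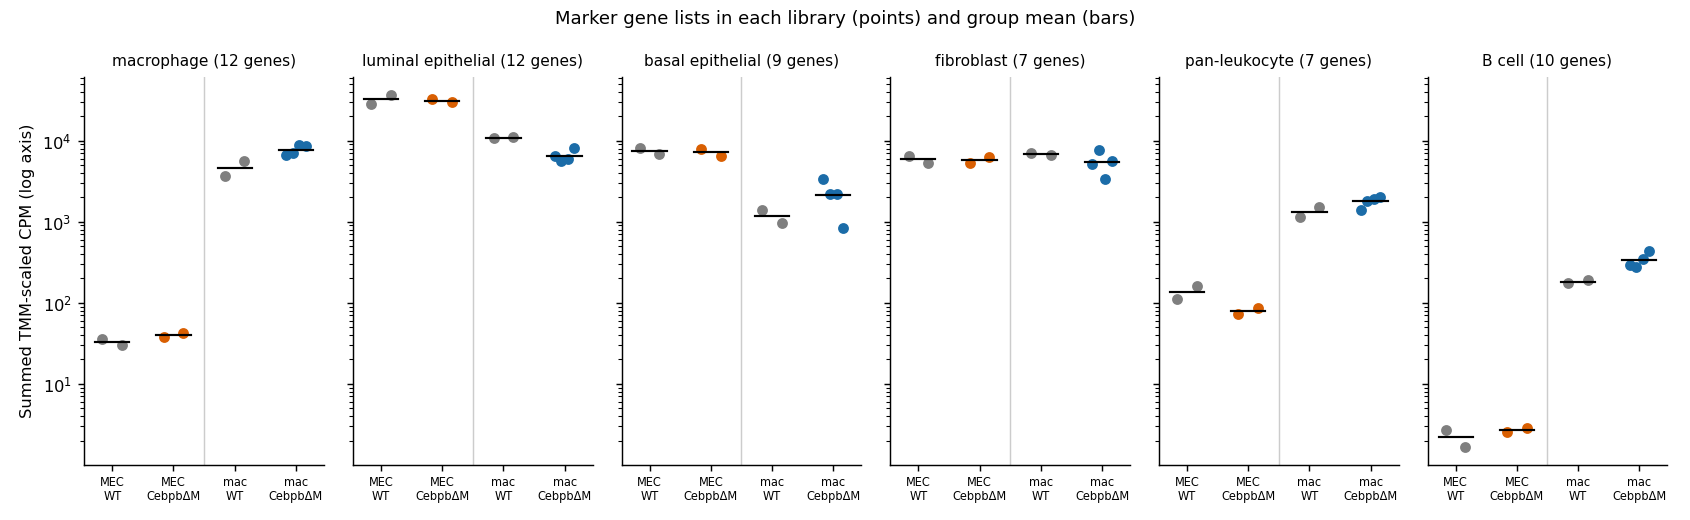
Summed TMM-scaled CPM of 6 marker gene lists (log axis) in each library, by cell type and genotype, with points for libraries and bars for group means. Luminal markers lie between 10687 and 11081 CPM in the 2 WT macrophage libraries and between 5703 and 8043 CPM in the 4 CebpbΔM macrophage libraries, and macrophage markers are at or below 42.5 CPM in all 4 MEC libraries.

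*Cebpb*ΔM and WT libraries did not overlap for 9 of the 9 genes in MECs (28.3% of all 18323 genes) and for 8 of the 9 in macrophages (18.5% of all genes), *Nckap1l* being the exception in macrophages. They did not overlap in either cell type, and in opposite directions, for 8 of the 9, against 2.41% of all genes, while 2.63% of all genes were separated in the same direction in both. Opposite signs of the log2 fold change were the reason the 9 genes were listed, and 49.5% of all genes had them. The edgeR quasi-likelihood (QL) test called 0 of the 18323 genes (0%) between genotypes in MECs, in macrophages and in the difference of the 2 effects, with 491, 1909 and 951 genes at an unadjusted *P* under 0.05. The likelihood ratio test called 20, 281 and 53 genes, and DESeq2 called 39, 284 and 28. In the sentences below a genotype effect is a log2 fold change, *Cebpb*ΔM against WT, with its standard error from the fit over all 10 libraries. *Vipr1*, *Tmem201* and *Ly6c2* were higher in *Cebpb*ΔM MECs and lower in *Cebpb*ΔM macrophages. *Blnk*, *Nckap1l*, *P2rx7*, *Matn4*, *Apc2* and *Zfp867* were lower in *Cebpb*ΔM MECs and higher in *Cebpb*ΔM macrophages. With the *Cebpb*ΔM macrophages limited to libraries 6 and 7, a choice made after seeing the data, 9 of the 9 genes had opposite signs. In that subset 9 had genotypes that did not overlap in either cell type. Fewer libraries overlap less easily, the share over all genes was not counted for the subset, and the genes were listed on these same libraries. Other genes of each pathway are described below by how many had a positive log2 fold change and by their median, beside medians of −0.03 in MECs and 0.03 in macrophages over all 18323 genes.

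**Figure D2:**
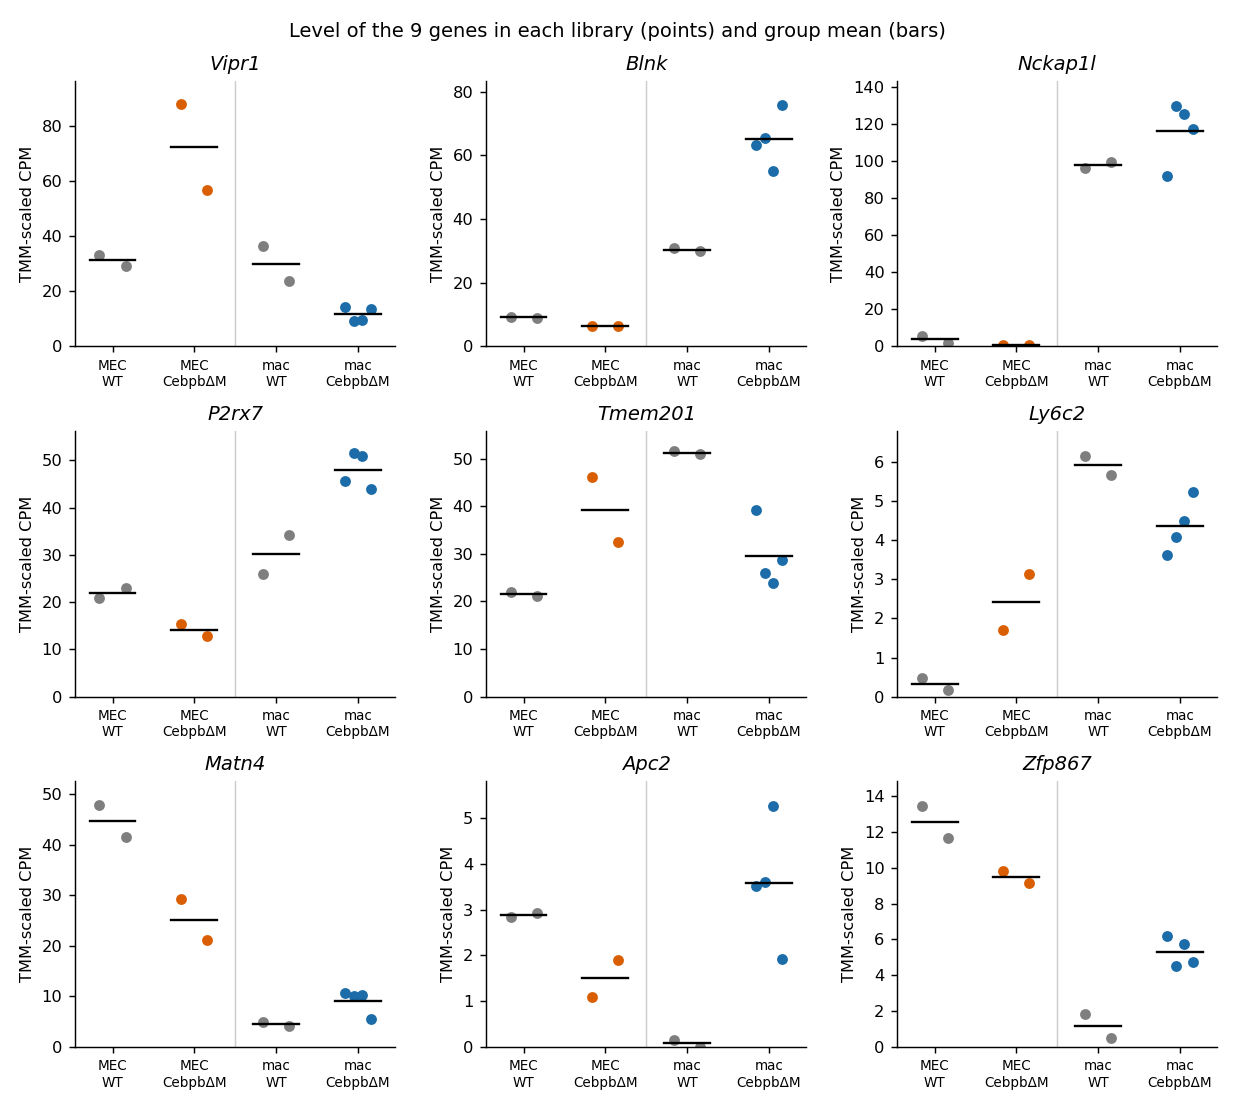
TMM-scaled CPM (linear axes from 0) of the 9 genes in each library, with gray points for WT, orange for CebpbΔM MECs, blue for CebpbΔM macrophages and bars for group means. The order of the genotypes turns around between the left and right of each panel, and only Nckap1l in macrophages has overlapping genotypes.

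*Vipr1* (GRCm38 chr9:121642716-121672954, plus strand) encodes VPAC1, a G protein-coupled receptor for vasoactive intestinal peptide (VIP) and PACAP that raises cAMP. It was at 33.1 and 29.3 CPM in WT MECs 1 and 3 and 87.7 and 56.6 CPM in *Cebpb*ΔM MECs 1 and 3. Both *Cebpb*ΔM MEC libraries were above both WT libraries, and the group means were 72.2 ± 22.02 and 31.2 ± 2.72 CPM (SD, n = 2 each). In macrophages it was at 36.4 and 23.8 CPM in WT macrophages 4 and 5 and 14.4, 9.40, 9.77 and 13.6 CPM in *Cebpb*ΔM macrophages 4, 5, 6 and 7. All 4 *Cebpb*ΔM macrophage libraries were below both WT libraries, the reverse of the order in MECs. The genotype effect was 1.21 ± 0.31 in MECs (2.31-fold higher in *Cebpb*ΔM) and −1.35 ± 0.26 in macrophages (2.55-fold lower), and the difference between the 2 effects was −2.56 ± 0.41. Of the 10 tested genes of a list of the other VIP, PACAP and related class B receptor genes, the log2 fold change was positive in 2 in MECs (median −0.14) and in 8 in macrophages (median 0.42). The 2 of them at the highest level were *Calcrl*, the receptor partner for adrenomedullin and CGRP, at 6.38 and 5.57 CPM in WT and *Cebpb*ΔM MECs and 80.1 and 85.1 CPM in WT and *Cebpb*ΔM macrophages, and *Ramp2*, its accessory protein. *Ramp2* was at 8.17 and 7.74 CPM in WT and *Cebpb*ΔM MECs and 68.6 and 66.9 CPM in WT and *Cebpb*ΔM macrophages, so the genotype means of this pair were close in each cell type.

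*P2rx7* (chr5:122643911-122691432, plus strand) encodes an ATP-gated cation channel that, at high extracellular ATP, leads to activation of the NLRP3 inflammasome in macrophages. It was at 20.8 and 22.9 CPM in WT MECs 1 and 3 and 15.4 and 12.9 CPM in *Cebpb*ΔM MECs 1 and 3. Both *Cebpb*ΔM MEC libraries were below both WT libraries. Macrophages had 26.0 and 34.2 CPM in WT macrophages 4 and 5 and 45.6, 51.6, 51.0 and 44.0 CPM in *Cebpb*ΔM macrophages 4, 5, 6 and 7. Here the 4 *Cebpb*ΔM libraries were above both WT libraries, and the means were 48.0 ± 3.80 (SD, n = 4) and 30.1 ± 5.80 CPM (SD, n = 2). The genotype effect was −0.63 ± 0.22 in MECs and 0.68 ± 0.19 in macrophages, the smallest difference among the 9 genes, at 1.31 ± 0.29. Of the 17 tested genes of a list of P2X channels, inflammasome and ATP breakdown genes, the log2 fold change was positive in 7 in MECs (median −0.13) and in 13 in macrophages (median 0.37). Among them *P2rx6*, another channel subunit, separated the genotypes in both cell types in the directions of *Vipr1* rather than of *P2rx7*, with 0.19 ± 0.40 in MECs and −1.22 ± 0.34 in macrophages; it was named after its values were seen. *Entpd1*, an enzyme that breaks down extracellular ATP, was at 70.5 and 58.4 CPM in WT and *Cebpb*ΔM MECs and 257 and 293 CPM in WT and *Cebpb*ΔM macrophages. *Nek7*, a partner of NLRP3, was at 226 and 352 CPM in WT and *Cebpb*ΔM MECs and 211 and 170.5 CPM in WT and *Cebpb*ΔM macrophages. *P2rx4*, the channel gene next to *P2rx7*, had an effect of −0.08 ± 0.23 in MECs and 0.43 ± 0.20 in macrophages, and neither was called.

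*Blnk* (chr19:40928927-40994535, minus strand) encodes an adaptor that links the kinase SYK to its targets downstream of the B cell receptor and is also made by macrophages. It was at 9.35 and 8.86 CPM in WT MECs 1 and 3 and 6.55 and 6.29 CPM in *Cebpb*ΔM MECs 1 and 3. The 2 libraries of each MEC genotype were close to each other, and the genotypes did not overlap. In macrophages it was at 31.0 and 29.8 CPM in WT macrophages 4 and 5 and 63.4, 65.6, 55.1 and 75.9 CPM in *Cebpb*ΔM macrophages 4, 5, 6 and 7. Every *Cebpb*ΔM macrophage library was above both WT libraries, with means of 65.0 ± 8.53 (SD, n = 4) and 30.4 ± 0.813 CPM (SD, n = 2). Its genotype effect was −0.50 ± 0.21 in MECs and 1.09 ± 0.18 in macrophages (2.14-fold higher in *Cebpb*ΔM). Of the 15 tested genes of a list of B cell receptor signaling genes, the log2 fold change was positive in 4 in MECs (median −0.10) and in 14 in macrophages (median 0.50). *Ighm*, the immunoglobulin heavy chain of IgM, was at 0.122 and 0.391 CPM in WT and *Cebpb*ΔM MECs and 171 and 315 CPM in WT and *Cebpb*ΔM macrophages. *Lyn*, a Src family kinase of B and myeloid cells, was at 54.5 and 44.99 CPM in WT and *Cebpb*ΔM MECs and 127 and 144 CPM in WT and *Cebpb*ΔM macrophages. *Grb2*, an adaptor bound by BLNK, separated the genotypes in the same opposite directions as *Blnk*, with −0.27 ± 0.19 and 0.50 ± 0.17, and was named after its values were seen. The 10 B cell markers summed to 175 to 189.9 CPM in WT and 279 to 436 CPM in *Cebpb*ΔM macrophages, mostly from *Ighm*. Their part in the *Blnk* values was not tested. Of the 10 B cell markers 5 were at 0 counts in both WT macrophage libraries. *Ms4a1* and *Pax5*, which were among these, had at most 17 and 10 counts in any *Cebpb*ΔM macrophage library. *Cd79b* had 99 and 103 counts in WT macrophages and 131, 214, 70 and 100 in *Cebpb*ΔM macrophages 4 to 7. *Ighd* had 41 and 158 counts in WT and 209, 181, 213 and 208 in *Cebpb*ΔM. All 5 B cell markers that passed the filter had a positive log2 fold change in macrophages (median 1.01), and 0 were called.

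*Nckap1l* (chr15:103453794-103498810, plus strand) encodes HEM1, the blood cell form of a subunit of the WAVE complex, which drives actin branching downstream of Rac. It had 144 and 49 counts in WT MECs 1 and 3 and 15 and 14 counts in *Cebpb*ΔM MECs, or 5.83, 1.99, 0.610 and 0.544 CPM. The genotypes did not overlap, and the 2 WT libraries differed more from each other than the *Cebpb*ΔM libraries did. In macrophages it was at 96.4 and 99.6 CPM in WT macrophages 4 and 5 and 92.2, 129.9, 126 and 117 CPM in *Cebpb*ΔM macrophages 4, 5, 6 and 7. There *Cebpb*ΔM 4 lay below both WT libraries and the other 3 above them, so the genotypes overlapped. The genotype effect was −2.75 ± 0.47 in MECs (6.72-fold lower in *Cebpb*ΔM) and 0.25 ± 0.31 in macrophages, which is smaller than its standard error. Without WT MEC 1 the effect in MECs was −1.78, and without WT MEC 3 it was −3.32. Of the 7 pan-leukocyte markers, all but *Cytip* had at most 33 counts in any MEC library. *Ptprc* had 5 and 2 counts in WT and 2 and 0 in *Cebpb*ΔM MECs, *Adgre1*, which encodes F4/80, had 13 and 2 in WT and 0 and 0 in *Cebpb*ΔM, and *Laptm5* had 23 and 16 in WT and 22 and 6 in *Cebpb*ΔM. Others were higher in *Cebpb*ΔM MECs, with 19 and 7 counts of *Coro1a* in WT and 21 and 26 in *Cebpb*ΔM, and 2 and 2 counts of *Mrc1* in WT and 9 and 10 in *Cebpb*ΔM. Of the 7 pan-leukocyte markers 2 had a positive log2 fold change in MECs, and of the 12 macrophage markers 4 did. The 7 pan-leukocyte markers summed to 111 to 163 CPM in WT and 72.2 to 86.0 CPM in *Cebpb*ΔM MECs, nearly all of it from *Cytip*, and their part in the *Nckap1l* values was not tested. Of the 16 tested genes of a list of WAVE complex, Arp2/3 and Rac genes, the log2 fold change was positive in 6 in MECs (median −0.07) and in 12 in macrophages (median 0.13). *Arpc2* and *Actr3*, both subunits of the actin-branching Arp2/3 complex, were the most abundant. *Arpc2* was at 294 and 297 CPM in WT and *Cebpb*ΔM MECs and 488 and 495 CPM in WT and *Cebpb*ΔM macrophages. *Actr3* was at 289 and 269.7 CPM in WT and *Cebpb*ΔM MECs and 280.3 and 339 CPM in WT and *Cebpb*ΔM macrophages.

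*Ly6c2* (chr15:75108158-75111970, minus strand) encodes a GPI-anchored surface protein that, with the product of *Ly6c1*, makes up the Ly6C antigen of inflammatory monocytes. The 2 coding sequences are shown because reads can be shared between them. In the GENCODE M21 transcripts of equal length (GRCm38, stop codon included) they differ at 9 of 396 positions and are 97.7% identical, with a longest identical run of 188 bases. The first 120 bases hold 6 of the differences, in capitals, and the other 3 lie beyond them.
Ly6c2: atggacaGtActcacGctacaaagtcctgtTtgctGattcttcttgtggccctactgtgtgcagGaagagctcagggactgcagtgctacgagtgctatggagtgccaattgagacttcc
Ly6c1: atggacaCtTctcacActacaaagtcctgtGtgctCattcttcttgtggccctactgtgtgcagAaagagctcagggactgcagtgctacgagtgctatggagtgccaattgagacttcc
The counting kept read pairs by mapping quality, and the *Ly6c2* level is uncertain to the extent that pairs within the identical stretches could not be placed.

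*Ly6c2* had 12 and 4 counts in WT MECs 1 and 3 and 42 and 81 counts in *Cebpb*ΔM MECs 1 and 3, or 0.485, 0.162, 1.71 and 3.15 CPM. Both *Cebpb*ΔM libraries were above both WT libraries, in which the gene was close to the floor of 3 counts. In macrophages it was at 6.17 and 5.67 CPM in WT macrophages 4 and 5 and 3.62, 4.09, 4.50 and 5.23 CPM in *Cebpb*ΔM macrophages 4, 5, 6 and 7. All *Cebpb*ΔM macrophage libraries were below both WT libraries. The genotype effect was 2.88 ± 0.57 in MECs (7.38-fold higher in *Cebpb*ΔM) and −0.44 ± 0.42 in macrophages, close to its standard error. Without WT MEC 1 the effect in MECs was 3.85, and without WT MEC 3 it was 2.31. *Ly6c1* had an effect of 0.40 ± 0.35 in MECs and 0.10 ± 0.30 in macrophages, positive in both, and neither was called. Of the monocyte markers, *Ccr2* was at 0 counts in all 4 MEC libraries. The 8 monocyte markers summed to 94.7 to 121 CPM in WT and 103 to 121 CPM in *Cebpb*ΔM MECs, ranges that overlapped. Nearly all of this sum came from *Fn1* and *Plac8*, so it says little about the other markers. *Fn1* was at 66.9 and 49.6 CPM in WT and *Cebpb*ΔM MECs, and *Plac8* at 39.2 and 60.8 CPM, in opposite directions. In macrophages the 8 monocyte markers summed to 1534 to 2304 CPM in WT and 1929 to 2957 CPM in *Cebpb*ΔM, with overlap. There 5 of the 8 had a positive log2 fold change (median 0.12), and 0 were called. The part of this list in the *Ly6c2* values was not tested. Of the 10 tested genes of the Ly6 and Lypd family, the log2 fold change was positive in 4 in MECs (median −0.33) and in 6 in macrophages (median 0.04). *Ly6e*, which encodes a family member found on many cell types, was at 889 and 1019 CPM in WT and *Cebpb*ΔM MECs and 923 and 852 CPM in WT and *Cebpb*ΔM macrophages. *Plaur*, which encodes the urokinase receptor, was at 496 and 499 CPM in WT and *Cebpb*ΔM MECs and 190.0 and 195 CPM in WT and *Cebpb*ΔM macrophages.

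Promoter windows of 300 bases, 250 before and 50 after each start in RefSeq (GRCm38.p6), were given for 8 of the 9 genes, 14 windows in all. They were searched on both strands for 3 motifs. The C/EBP core TTGCNNAA was in 0 of the 14 windows and in 10.8% of 32817 windows of all genes. The CRE motif TGACGTCA, the element of cAMP-responsive factors, was in 0 of the 14 and in 1.79% of all. GAGGAAGT, the core bound by the myeloid factor PU.1, was in 3 of the 14 windows, both windows of *Ly6c2* and 1 of *P2rx7*, and in 3.2% of all windows. The *Ly6c2* windows overlap each other. The 2 windows below show where these letters lie, in capitals, and a match describes the sequence and not binding. The *P2rx7* window lies at a second annotated start within the gene.
Ly6c2, chr15:75111922-75112221, minus strand: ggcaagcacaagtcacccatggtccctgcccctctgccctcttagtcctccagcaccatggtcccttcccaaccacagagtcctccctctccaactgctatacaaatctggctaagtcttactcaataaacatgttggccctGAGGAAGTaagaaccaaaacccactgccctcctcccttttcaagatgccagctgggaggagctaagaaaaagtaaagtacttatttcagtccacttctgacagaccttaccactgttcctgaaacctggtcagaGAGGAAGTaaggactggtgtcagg
P2rx7, chr5:122650133-122650432, plus strand: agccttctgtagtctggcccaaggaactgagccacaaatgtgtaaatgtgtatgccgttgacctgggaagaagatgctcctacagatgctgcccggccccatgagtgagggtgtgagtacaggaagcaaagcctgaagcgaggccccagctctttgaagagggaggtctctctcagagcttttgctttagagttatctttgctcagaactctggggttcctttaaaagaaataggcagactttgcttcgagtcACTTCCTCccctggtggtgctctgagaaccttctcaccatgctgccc
In the *Ly6c2* window the matches start −108 and 26 bases from the transcription start, on the strand shown, and in the *P2rx7* window the match is on the other strand, 3 bases from the start.

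*Matn4* (chr2:164389393-164405160, minus strand) encodes matrilin-4, an adaptor protein of extracellular matrix networks. It was at 47.9 and 41.5 CPM in WT MECs 1 and 3 and 29.2 and 21.1 CPM in *Cebpb*ΔM MECs 1 and 3. Both *Cebpb*ΔM MEC libraries were below both WT libraries. Its macrophage levels were 4.97 and 4.09 CPM in WT macrophages 4 and 5 and 10.5, 10.03, 10.3 and 5.53 CPM in *Cebpb*ΔM macrophages 4, 5, 6 and 7. The *Cebpb*ΔM macrophage libraries were all above WT, with *Cebpb*ΔM 7 close to the WT level and far from the other 3. The genotype effect was −0.83 ± 0.32 in MECs and 1.01 ± 0.30 in macrophages (2.01-fold higher in *Cebpb*ΔM). *Rbpjl* lies on the opposite strand and shares 149 nt of annotated exon with *Matn4*; its genotype effect was −0.33 ± 0.46 in MECs and −1.80 ± 0.39 in macrophages, negative in both, and neither was called. Counting was set to reverse strand, and the sources used here do not say whether the low-input kit marks strand, so reads in the shared stretch could belong to either gene. Of the 14 tested genes of a list of matrilins and associated matrix genes, the log2 fold change was positive in 6 in MECs (median −0.23) and in 7 in macrophages (median 0.04). *Dcn*, the proteoglycan decorin, was at 1300.4 and 2496 CPM in WT and *Cebpb*ΔM MECs and 1851 and 1596 CPM in WT and *Cebpb*ΔM macrophages. *Col6a1*, a chain of collagen VI, was at 300.1 and 245 CPM in WT and *Cebpb*ΔM MECs and 251 and 180.4 CPM in WT and *Cebpb*ΔM macrophages. The 7 fibroblast markers summed to 6626 to 7094 CPM in WT and 3339 to 7689 CPM in *Cebpb*ΔM macrophages, with overlap, and 0 of the 7 had a positive log2 fold change there. In MECs they summed to 5338 to 6467 CPM in WT and 5283 to 6307 CPM in *Cebpb*ΔM, also with overlap. There 2 of the 7 had a positive log2 fold change (median −0.31). The 9 basal epithelial markers summed to 1384.5 and 953 CPM in WT macrophages 4 and 5. In *Cebpb*ΔM macrophages 4 to 7 they summed to 3395, 2213, 2191 and 840 CPM. The 12 luminal markers went the other way, with 10687 to 11081 CPM in WT and 5703 to 8043 CPM in *Cebpb*ΔM macrophages. The part of the fibroblast, basal and luminal lists in the *Matn4* values was not tested.

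*Apc2* (chr10:80295977-80318263, plus strand) encodes a homolog of APC that binds β-catenin and microtubules and is best known from neurons. It had 70 and 72 counts in WT MECs 1 and 3 and 27 and 49 counts in *Cebpb*ΔM MECs, or 2.83, 2.92, 1.10 and 1.90 CPM. The genotypes did not overlap. In macrophages it had 3 and 0 counts in WT 4 and 5, at or under the floor of 3 counts, and 69, 74, 97 and 32 counts in *Cebpb*ΔM 4 to 7. Every *Cebpb*ΔM macrophage library was above both WT libraries. Summed over libraries, 272 counts in *Cebpb*ΔM and 3 in WT macrophages gave a ratio of 49.3 relative to the library sizes (95% exact interval 16.7 to 240.7, covering counting error only). The interval leaves out the spread between libraries and is no test, since *Apc2* was listed for this contrast. The fitted effect was 5.49 ± 0.91 in macrophages, and it was 4.50 without WT 5 and 9.29 without WT 4. With so few WT counts this value depends on the prior count of the fit itself. That prior is not the one used for log2 CPM, and it was not varied here. The effect in MECs was −0.94 ± 0.70. Leaving out *Cebpb*ΔM MEC 3 gave −1.39 and leaving out *Cebpb*ΔM MEC 1 gave −0.60. *2310011J03Rik* shares 10 nt of exon with *Apc2* on the opposite strand and had effects of 0.13 ± 0.20 and 0.10 ± 0.18. Of the 16 tested genes of a list of β-catenin destruction complex genes, the log2 fold change was positive in 7 in MECs (median −0.07) and in 2 in macrophages (median −0.15). *Csnk1a1*, the casein kinase that primes β-catenin for destruction, was at 424 and 565 CPM in WT and *Cebpb*ΔM MECs and 309 and 304 CPM in WT and *Cebpb*ΔM macrophages. *Ppp2r1a*, the scaffold of protein phosphatase 2A, was at 504 and 479 CPM in WT and *Cebpb*ΔM MECs and 306 and 283 CPM in WT and *Cebpb*ΔM macrophages.

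*Tmem201* (chr4:149715375-149738044, minus strand) encodes SAMP1, a protein of the inner nuclear membrane linked to the lamina and the LINC complex. It was at 21.97 and 21.2 CPM in WT MECs 1 and 3 and 46.1 and 32.5 CPM in *Cebpb*ΔM MECs 1 and 3. Both *Cebpb*ΔM MEC libraries were above both WT libraries. In macrophages it was at 51.6 and 50.9 CPM in WT macrophages 4 and 5 and 39.3, 25.9, 23.9 and 28.7 CPM in *Cebpb*ΔM macrophages 4, 5, 6 and 7. All 4 *Cebpb*ΔM macrophage libraries were below both WT libraries, which were close to each other. Its genotype effect was 0.86 ± 0.27 in MECs (1.82-fold higher in *Cebpb*ΔM) and −0.80 ± 0.22 in macrophages (1.74-fold lower), so the 2 effects were of nearly the same size. Of the 17 tested genes of a list of nuclear envelope and LINC complex genes, the log2 fold change was positive in 9 in MECs (median 0.04) and in 9 in macrophages (median 0.00). *Lmna*, which encodes the A-type lamins, was at 5323 and 5751 CPM in WT and *Cebpb*ΔM MECs and 1356 and 1239.8 CPM in WT and *Cebpb*ΔM macrophages. *Tmem43*, another inner nuclear membrane protein, was at 242 and 236 CPM in WT and *Cebpb*ΔM MECs and 112 and 112 CPM in WT and *Cebpb*ΔM macrophages.

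*Zfp867* (chr11:59461197-59472474, minus strand) encodes a zinc finger protein. It was at 13.5 and 11.7 CPM in WT MECs 1 and 3 and 9.80 and 9.13 CPM in *Cebpb*ΔM MECs 1 and 3. The genotypes did not overlap in MECs, and the effect of −0.41 ± 0.45 was smaller than its standard error. In macrophages it had 36 and 10 counts in WT 4 and 5 and 121, 93, 106 and 79 counts in *Cebpb*ΔM 4 to 7, or 1.81, 0.476, 6.16, 4.53, 5.75 and 4.75 CPM. All *Cebpb*ΔM macrophage libraries were above both WT libraries. The effect in macrophages was 2.22 ± 0.46, and it was 3.44 without WT 4 and 1.53 without WT 5. Of the 13 tested genes of a list of corepressors used by KRAB zinc finger proteins, the log2 fold change was positive in 6 in MECs (median −0.03) and in 7 in macrophages (median 0.09). *Trim28*, the central corepressor, separated the genotypes in both cell types in the directions opposite to *Zfp867*, with 0.39 ± 0.21 in MECs and −0.30 ± 0.18 in macrophages. *Chd4*, a chromatin remodeler, was at 149 and 138 CPM in WT and *Cebpb*ΔM MECs and 169 and 144 CPM in WT and *Cebpb*ΔM macrophages. Whether *Zfp867* carries a KRAB domain was not examined here.

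**Figure D3:**
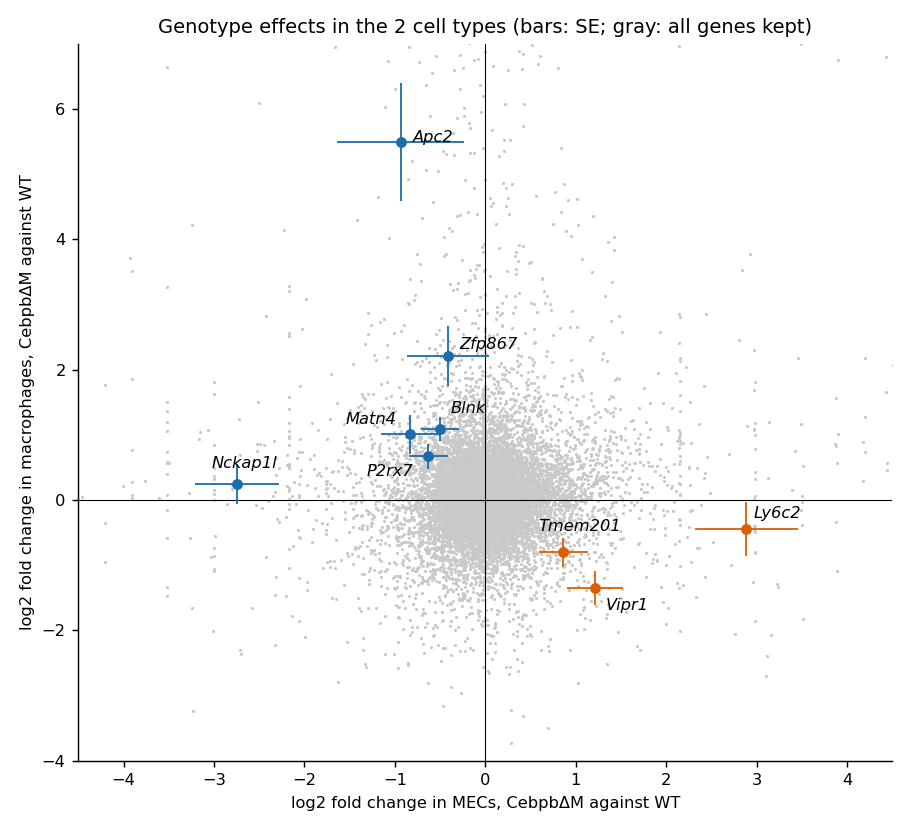
Log2 fold change of CebpbΔM against WT in MECs (horizontal) and macrophages (vertical) for the 9 genes with standard errors, over all 18323 genes in gray. The axes leave out 122 gray points, and the 9 genes lie in the upper left (Blnk, Nckap1l, P2rx7, Matn4, Apc2 and Zfp867) and lower right (Vipr1, Tmem201 and Ly6c2) parts of the plot.

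The level of the 9 genes between the cell types, averaged over the genotypes, was not used to list them and was tested. The test shares its estimate of the spread with the genotype contrasts that led to the listing, so it is not fully independent of that choice. Cell type and experiment are the same split of the libraries and cannot be told apart. By edgeR's QL test 8 of the 9 genes were called between macrophages and MECs, against 44.6% of all 18323 genes (8163). Log2 fold changes are given with their standard errors and the adjusted *P* of this test. *Nckap1l*, the WAVE subunit of blood cells, was higher in macrophages by 6.14 ± 0.32 (adjusted *P* = 1.08e-07). *Blnk* was higher by 2.54 ± 0.15 (adjusted *P* = 2.40e-07), *Ly6c2* by 2.50 ± 0.37 (adjusted *P* = 2.54e-04) and *P2rx7* by 1.11 ± 0.15 (adjusted *P* = 1.15e-04). These 4 genes code for the leukocyte proteins and the ATP-gated channel. Lower in macrophages were *Matn4*, with −2.38 ± 0.22 (adjusted *P* = 8.36e-06), *Zfp867*, with −2.15 ± 0.32 (adjusted *P* = 2.57e-04), *Apc2*, with −1.96 ± 0.55 (adjusted *P* = 0.0131), and *Vipr1*, with −1.33 ± 0.20 (adjusted *P* = 3.35e-04). *Tmem201* was not called, at 0.42 ± 0.18 (adjusted *P* = 0.0795). The 6 macrophage and 4 MEC libraries did not overlap for 6 of the 9 genes, 4 of them higher and 2 lower in macrophages, against 36.2% of all genes. The libraries overlapped for *Vipr1*, *Tmem201* and *Apc2*. Within one genotype the contrast changes by the same values that led to the listing. *Tmem201* was 1.25 ± 0.27 in WT libraries and −0.42 ± 0.23 in *Cebpb*ΔM libraries, and *Apc2* was −5.18 ± 0.94 and 1.25 ± 0.63, so both changed sign. *Vipr1* was −0.05 ± 0.31 in WT libraries and −2.62 ± 0.26 in *Cebpb*ΔM libraries.

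**Figure D4:**
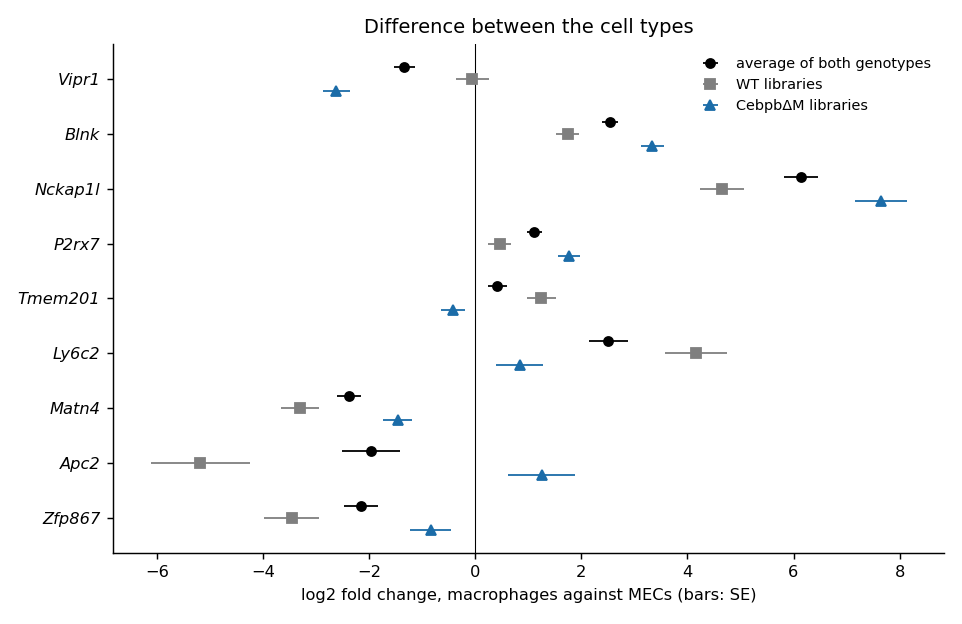
Log2 fold change of macrophages against MECs for the 9 genes with standard errors, averaged over the genotypes (black) and within WT (gray) and CebpbΔM (blue) libraries. Nckap1l, Blnk, P2rx7 and Ly6c2 lie right of 0 in all 3, Matn4 and Zfp867 left of 0 in all 3, and Tmem201 and Apc2 change side.

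Levels can be compared between genes only per length of exon. In WT MECs *Matn4* was highest, at 8.63 ± 0.872 CPM per kb (SD, n = 2), followed by *Vipr1* at 5.38 ± 0.469. *Zfp867* at 3.68 ± 0.376 and *P2rx7* at 3.66 ± 0.246 came next and did not differ beyond their spread. *Apc2* and *Ly6c2* were the lowest there. In *Cebpb*ΔM MECs *Vipr1* took the highest place at 12.4 ± 3.80 CPM per kb, *Matn4* at 4.86 ± 1.11 and *Tmem201* at 4.39 ± 1.07 followed within their spread, and *Apc2* at 0.133 ± 0.0505 and *Nckap1l* at 0.0972 ± 0.00787 were lowest and did not differ beyond their spread. In WT macrophages *Nckap1l* was highest at 16.5 ± 0.380 CPM per kb. *Tmem201* at 5.73 ± 0.0572, *Vipr1* at 5.18 ± 1.54, *Blnk* at 5.08 ± 0.136 and *P2rx7* at 5.04 ± 0.971 followed, and no 2 neighbors in this order differed beyond their spread. In *Cebpb*ΔM macrophages the order after *Nckap1l* (19.6 ± 2.85) was *Blnk* (10.8 ± 1.42), *P2rx7* (8.05 ± 0.637) and *Tmem201* (3.29 ± 0.764), and *Vipr1* (2.03 ± 0.441), *Matn4* (1.76 ± 0.463), *Ly6c2* (1.59 ± 0.249) and *Zfp867* (1.55 ± 0.230) were close to one another.

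For each gene, the gene most like it among the 18323 was the one with the smallest root mean square difference over the 10 libraries, on log2 CPM minus the WT mean of the same cell type. The distance was 0.140 between *P2rx7* and *Sp140*, a nuclear body gene of leukocytes, at 12.55 and 8.57 CPM in WT and *Cebpb*ΔM MECs and 13.6 and 21.2 CPM in WT and *Cebpb*ΔM macrophages. It was 0.151 between *Blnk* and *A330040F15Rik*, at 1.40 and 1.05 CPM in WT and *Cebpb*ΔM MECs and 0.736 and 1.69 CPM in WT and *Cebpb*ΔM macrophages. *Tmem201* was most like *Slc26a10*, with a distance of 0.224, at 64.9 and 98.9 CPM in WT and *Cebpb*ΔM MECs and 76.4 and 49.6 CPM in WT and *Cebpb*ΔM macrophages. *Vipr1* was most like *Smtnl2*, a smoothelin-like gene, with a distance of 0.362, at 2.31 and 3.999 CPM in WT and *Cebpb*ΔM MECs and 4.73 and 2.29 CPM in WT and *Cebpb*ΔM macrophages. Because the measure compares profiles relative to WT, a shared order of the genotypes in these pairs and those below follows from the choice. *Ly6c2* was most like *Agtr1a*, the type 1 angiotensin II receptor, with a distance of 0.450, and *Agtr1a* was at 25.9 and 132 CPM in WT and *Cebpb*ΔM MECs and 92.9 and 55.7 CPM in WT and *Cebpb*ΔM macrophages. *Matn4* was most like *Zfp189*, with a distance of 0.300, and *Zfp867* was most like *Necab2*, with a distance of 0.283. *Nckap1l* was most like *Adgre1*, with a distance of 0.419, and *Adgre1* was at 0 counts in both *Cebpb*ΔM MEC libraries. *Apc2* was most like *Mc1r*, a melanocortin receptor, with the largest distance of the 9, 0.555, and *Mc1r* was at 0 in WT macrophages. The 9 genes lie on 8 chromosomes, with *Nckap1l* and *Ly6c2* both on chromosome 15. Of the 18 nearest kept neighbors, 8 had opposite signs in the 2 cell types, which is 44.4% and near the 49.5% of all genes, and 0 were called in either cell type.

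The partner lists were also counted between cell types, where 24.7% of all 18323 genes were called higher and 19.8% lower in macrophages. Of the 15 B cell receptor signaling genes tested, 13 were higher and 0 lower in macrophages than in MECs by the QL test, with a median of 2.28, beside 0.05 over all genes. For P2X and inflammasome genes (17 tested) 11 were higher and 3 lower in macrophages than in MECs by the QL test. WAVE and Rac genes (16 tested) counted 9 higher and 3 lower. In the VIP and PACAP list (10 tested) 4 were higher and 2 lower. The matrix list (14 tested) had 1 higher and 6 lower, and the destruction complex (16 tested) 1 higher and 6 lower. Nuclear envelope genes (17 tested) had 6 higher and 5 lower, Ly6 genes (10 tested) 2 and 4, and corepressors (13 tested) 4 and 0. Between genotypes 0 genes of any of the 9 lists were called in either cell type by the QL test, as for all genes. Opposite signs in the 2 cell types were found in 12 of the 17 P2X and inflammasome genes, 9 of the 15 B cell receptor signaling genes, 6 of the 10 VIP and PACAP genes and 10 of the 17 nuclear envelope genes, beside 49.5% of all genes. They were found in 7 of the 14 matrix genes, 7 of the 16 destruction complex genes, 4 of the 10 Ly6 genes, 5 of the 13 corepressors and 6 of the 16 WAVE and Rac genes.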

How the data were processed

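RNA sequencing of 10 libraries was analysed, with 2 WT and 2 *Cebpb*ΔM libraries of MECs and 2 WT and 4 *Cebpb*ΔM libraries of macrophages, grouped by the labels. Reads had been trimmed (Trimmomatic 0.33), aligned to GRCm38 (HISAT2 2.1.0) and assigned by read pair to Ensembl release 100 genes (featureCounts 1.6.2), on the reverse strand and at a mapping quality of 10 or more per the file headers. The authors deposited raw counts of read pairs for each gene and library. No column belonged to another sample. A gene entered the fit if it was at least 300 nt long and exceeded 1 CPM in 2 or more libraries.

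All 10 libraries were fitted in one model of 4 groups with edgeR (version 4.0.16), TMM and the QL test in R (version 4.3.3), with Benjamini–Hochberg adjustment over 18323 genes and a threshold of 0.05. In the study's methods the test was edgeR's likelihood ratio test (3.38.1). It was run here as an alternative, as were DESeq2 (version 1.42.0), other normalization and filters, the replicate number as a block, each cell type or genotype alone and each library left out. Standard errors are the log2 fold change over the root of F. Log2 CPM used a prior count of 2, and 3 counts was the floor in a library, 0.117 to 0.180 CPM. Python (version 3.11.15) with pandas (version 2.3.3), numpy (version 2.4.6), scipy (version 1.17.1) and matplotlib (version 3.10.9) handled sequences and plots. The fit was tried on simulated data with changes placed only in *Cebpb*ΔM macrophages and in well expressed genes. That trial did not cover opposite effects in the 2 cell types or genes near the floor. Symbols came from GENCODE M21 for 55141 of 55487 genes. Nothing says that libraries came from separate cultures or animals, so *P* values measure the spread between these libraries. The 9 genes, 9 partner lists and 17 marker lists were chosen with earlier results of these data known. Named are the 9 genes, the targeted gene, called partners or else the 2 most abundant per list, the most similar gene, and nearest neighbors.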

Additional observations from a re-analysis of the deposited data

Results flagged for a closer look

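*Matn4* in *Cebpb*ΔM macrophage 7 was at 5.53 CPM, far from the other 3 *Cebpb*ΔM macrophage libraries (10.5, 10.03 and 10.3 CPM). The gap to the nearest of them was 0.898 of the range of the 4 libraries. This was 1 of the 9 groups examined in this way, and chance gives such a gap in about 1 in 20 groups. Without *Cebpb*ΔM 7 the *Matn4* effect in macrophages was 1.16. The same library had the lowest basal epithelial marker sum of the macrophage libraries, 839.7 CPM, and its part in the gap was not tested.

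For 8 of the 9 genes every *Cebpb*ΔM library lay on one side of WT in MECs and on the other side in macrophages. The log2 fold change in macrophages minus that in MECs was −2.56 for *Vipr1*, 1.598 for *Blnk*, 1.31 for *P2rx7*, −1.66 for *Tmem201*, −3.32 for *Ly6c2*, 1.84 for *Matn4*, 6.43 for *Apc2* and 2.62 for *Zfp867*. These differences were not tested, since the genes were listed for them.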

How the results depend on the processing

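The 9 genes had opposite signs in the 2 cell types, for which they were listed, under all 20 alternatives that give both genotype effects. Overlap was counted under 18, which leave out DESeq2 and each cell type alone, and 8 or 9 had genotypes that did not overlap in either. An older form of the QL test gave the same values as the main fit, and it is counted among these alternatives and in the values that follow. Of 720 values of single genes under alternatives, 689 stayed the same, 24 moved by more than the spread between libraries, 4 lost and 1 gained their call and 2 reversed. In *Cebpb*ΔM libraries only, *Tmem201* reversed to −0.42 (adjusted *P* = 0.187) and *Apc2* to 1.25 (adjusted *P* = 0.156), and 5 of the 9 genes were called between cell types instead of 8. In WT libraries only, 7 of the 9 were called and 4664 genes in all. *Vipr1* (−0.05) and *P2rx7* (0.46) lost their call in WT libraries, *Ly6c2* (0.84) and *Zfp867* (−0.84) lost it in *Cebpb*ΔM libraries, and *Tmem201* (1.25) gained one in WT libraries. These subsets hold fewer libraries and carry the genotype difference the genes were listed for. Genes called between genotypes in MECs, in macrophages and in the difference numbered 20, 281 and 53 by the likelihood ratio test and 39, 284 and 28 by DESeq2, against 0 by the QL test. Each cell type fitted alone gave 8 in MECs and 0 in macrophages, macrophage replicates 4 and 5 only gave 43 in macrophages, and *Cebpb*ΔM macrophages 6 and 7 only, an alternative chosen after seeing the data because the *Cebpb* counts of 4 and 5 were not below the lower WT count, gave 6. The cause of these changes was not tested. Leaving out 1 library gave 0 to 1 genes in MECs, 0 to 15 in macrophages, 0 to 1 in the difference and 6517 to 8326 between cell types, the 15 coming without WT macrophage 4.

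The replicate number as a block gave 39 genes in macrophages, 1 in the difference, 0 in MECs and 8309 between cell types. Deviations from the group means of libraries with the same number correlated at 0.101 in MECs, 0.119 for macrophage 4 and −0.0772 for macrophage 5. In a group of 2 libraries the deviations mirror each other, so these values cannot tell whether libraries with the same number were paired. Depth limits *Apc2* in WT macrophages and *Ly6c2* in WT MECs, which are at or near 3 counts, and 2 libraries in 3 of the 4 groups limit every standard error.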

Other observations

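The remaining marker lists, and the basal list again, were summed in the same way, and 0 genes of any of the 17 lists were called between genotypes in either cell type. Basal epithelial markers (9 genes) summed to 6772 to 8145 and 6477 to 7994 CPM in WT and *Cebpb*ΔM MECs and 953 to 1384 and 839.7 to 3395 CPM in WT and *Cebpb*ΔM macrophages. Endothelial markers (7 genes) summed to 116 to 156 and 107 to 130.3 CPM in WT and *Cebpb*ΔM MECs and 1638 to 1809.7 and 1116 to 2412 CPM in WT and *Cebpb*ΔM macrophages. Adipocyte markers (6 genes) summed to 31.6 to 33.6 and 31.4 to 34.1 CPM in WT and *Cebpb*ΔM MECs and 414 to 535 and 462 to 1119 CPM in WT and *Cebpb*ΔM macrophages. Schwann cell markers (5 genes) summed to 221 to 325 and 245 to 321 CPM in WT and *Cebpb*ΔM MECs and 87.5 to 195 and 64.7 to 192 CPM in WT and *Cebpb*ΔM macrophages. All 9 basal markers had a positive log2 fold change in macrophages (median 0.90), whereas the luminal markers were mostly negative there. Erythroid markers (4 genes) summed to 27.4 to 31.2 and 56.2 to 134 CPM in WT and *Cebpb*ΔM MECs and 24.3 to 91.7 and 27.7 to 58.3 CPM in WT and *Cebpb*ΔM macrophages. Dendritic cell markers (9 genes) summed to 3.16 to 3.62 and 5.53 to 5.98 CPM in WT and *Cebpb*ΔM MECs and 395 to 545 and 591 to 1066 CPM in WT and *Cebpb*ΔM macrophages. Neutrophil markers (8 genes) summed to 0.971 to 1.06 and 0.816 to 0.976 CPM in WT and *Cebpb*ΔM MECs and 24.5 to 30.5 and 26.6 to 43.7 CPM in WT and *Cebpb*ΔM macrophages. T cell markers (10 genes) summed to 12.9 to 14.6 and 11.9 to 14.7 CPM in WT and *Cebpb*ΔM MECs and 6.77 to 14.6 and 18.8 to 27.7 CPM in WT and *Cebpb*ΔM macrophages. T cell markers were at or under 27.7 CPM in every library, and the MEC genotypes did not overlap in the sums of erythroid, dendritic cell and plasma cell markers. The macrophage genotypes did not overlap in those of dendritic cell, T cell, NK cell and plasma cell markers. NK cell markers (6 genes) summed to 0.0406 to 0.324 and 0.0777 to 0.203 CPM in WT and *Cebpb*ΔM MECs and 2.56 to 4.28 and 0.380 to 2.16 CPM in WT and *Cebpb*ΔM macrophages. Plasma cell markers (6 genes) summed to 2.64 to 3.40 and 3.53 to 6.83 CPM in WT and *Cebpb*ΔM MECs and 1.76 to 4.16 and 6.24 to 12.4 CPM in WT and *Cebpb*ΔM macrophages. Mast cell markers (5 genes) summed to 0 to 0.284 and 0 to 0.203 CPM in WT and *Cebpb*ΔM MECs and 32.7 to 35.3 and 23.8 to 51.8 CPM in WT and *Cebpb*ΔM macrophages. Their part in the values of the 9 genes was not tested.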
